A study of Mus musculus with 20 samples.

Results

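TCRαβ+CD8αα+ intraepithelial lymphocytes of the mouse small intestine that had lost Prdm1 were compared with the same cells of floxed littermates by bulk RNA-seq, in 4 of the 20 libraries of the study. The 2 knockout libraries came from Prdm1 fl/fl Cd8cre mice and the 2 control libraries from Prdm1 fl/fl mice without Cre. The mice were kept at steady state, and the labels give no age and do not say whether each library is a separate animal, so p-values measure only the spread between libraries. Cd8cre, a Cre recombinase under Cd8 regulatory sequence, stood in both knockout libraries and in neither control, so effects of Cre and of Prdm1 loss cannot be told apart. Both groups carry the floxed allele, and the sorted cells were the whole CD8αα+ αβ population, not a subset. Of 13624 genes in the table, 10969 with a signal of at least 50 in 2 or more of the 4 libraries were tested. Signal is the read count of a gene divided by 1 size factor per library, with no gene length, so levels are compared between libraries and not between genes.

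Intraepithelial lymphocytes are T cells that live between the epithelial cells of the gut lining. Those with an αβ receptor and the CD8αα homodimer arise from self-reactive thymic precursors, carry receptors of natural killer (NK) cells and store granzymes while at rest. Prdm1 encodes BLIMP1, a zinc-finger repressor of transcription that drives B cells to become plasma cells and T cells to become effectors or resident cells. In other T cells it opposes BCL6, and TCF1 (encoded by Tcf7), BACH2 and ID3 are factors of the less differentiated state.

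Depth, as recovered from the values, was 33834856 and 38385639 reads in littermate libraries and 31419785 and 30138954 in knockout libraries. T cell genes were high in all 4: Cd3e ranged from 26788 to 38331, Cd8a from 86285 to 116904 and Itgae, the integrin that binds epithelial E-cadherin, from 81344 to 103235. Cd8b1, which these cells should lack, was at 98.3 and 8.63 in littermates and 135 and 27.0 in knockouts. Cd4 was at 6.21, 8.63, 48.7 and 66.5 in the same order. The libraries also split by sex-linked transcripts. The Y-linked gene Ddx3y was at 11359 in littermate replicate 1 and 11544 in knockout replicate 1, against 119 and 131 in the replicates numbered 2, and Kdm5d, Eif2s3y and Uty split the same way. The replicate number therefore separates libraries with and without Y-linked transcripts, equally in both groups. Genes of gut epithelium were higher in knockout libraries. The epithelial list without Cdh1 and Epcam held 0.0125 and 0.0164% of the signal of littermate libraries and 0.0380 and 0.0850% of that of knockout libraries, and its part in the results below was not tested.

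Prdm1 itself (chromosome 10, 44437177 to 44528501, minus strand, GRCm38) stood at 6092 and 5117 in littermates and at 640 and 362 in knockouts. The knockout libraries held 11.4 and 6.45% of the littermate mean, a log2 fold change of -3.53 ± 0.25 (SE, limma adjusted p = 0.0025). Values are for the whole gene and may include exons that the floxed allele leaves in place. In a bulk library, fewer cells that express a gene and less RNA per cell cannot be told apart.

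Across the transcriptome, 471 genes (4.29% of those tested) were called higher and 279 (2.54%) lower in the knockout by limma at an adjusted p of 0.05. The largest losses were larger than the largest gains: 25 genes fell and 17 rose at least 8-fold, while 121 fell and 375 rose at least 2-fold. Many of the rises were of genes at low signal in littermates. Of the 471 higher calls, 198 had a littermate library below 50 and 147 had both littermates at 250 or more. A gene below 50 in littermates enters the test only where the knockouts reach that level, so such genes could be called in 1 direction only. Of the 279 lower calls, 258 had both littermates at 250 or more. Among the 8663 genes at that level in both littermates, 1.70% were called higher and 2.98% lower. With the replicate number as a block, 1210 genes (11.0%) were called higher and 1176 (10.7%) lower, and all 750 calls made without the block were kept. With only 4 libraries, the block leaves very little to measure the spread of each gene. Its p-values here and below therefore lean more on the variance that limma shares across genes. On recovered reads, edgeR called 4.80% of genes higher and 2.23% lower, and DESeq2 7.09 and 3.70%. Every one of the 471 and 279 calls had the same direction in the pair of libraries numbered 1 and in the pair numbered 2. The calls were made from these same 4 libraries, so this direction was nearly fixed by the call and is no separate evidence. Medians in the 2 pairs were 1.69 and 1.84 for higher and -0.95 and -0.90 for lower calls on the log2 scale. The median over all genes tested was -0.04.

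**Figure D1:**
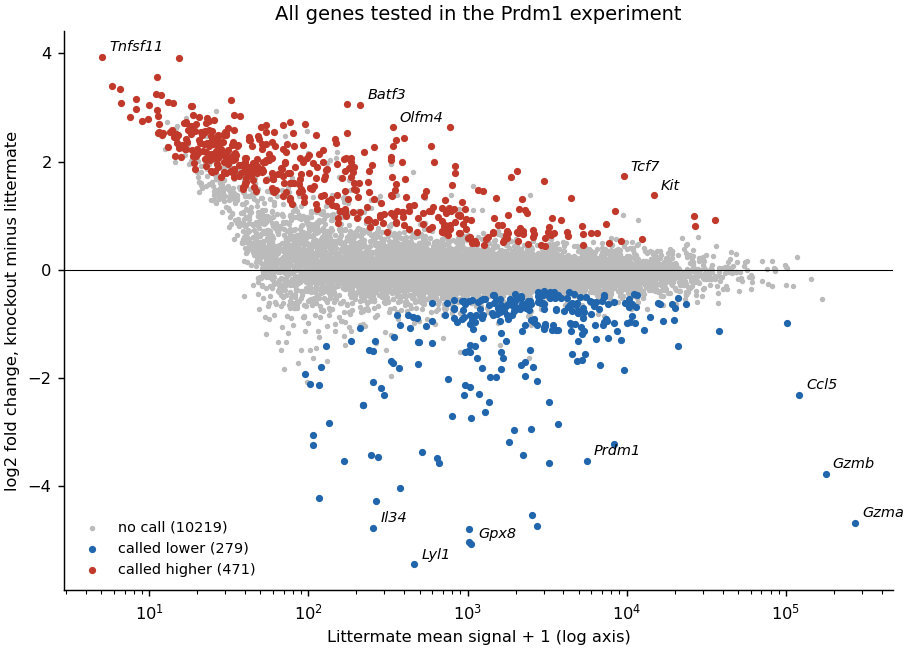
Log2 fold change of the Prdm1 knockout minus littermates (y axis) against the mean littermate signal plus 1 (x axis, log scale) for all 10969 genes tested. Red points are the 471 genes called higher, blue points the 279 called lower and grey points the rest; higher calls gather at low littermate signal, and Gzma and Gzmb stand out as abundant genes that fell.

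Granzymes, perforin and other cytotoxic genes fell in the knockout. Of 26 tested genes for granules and effector molecules, 9 fell (34.6%, beside 2.54% of all genes tested), none rose and the list's median log2 fold change was -0.43, beside -0.04 over all genes. Gzma, a tryptase of the cytotoxic granule (chromosome 13, 113093825 to 113100981), was at 267146 and 277468 in littermates and 15701 and 7212 in knockouts. Both knockout libraries lay far below both controls, and the level was 25.6-fold lower (log2 fold change -4.68 ± 0.34, adjusted p = 0.0025). Gzmb, the granzyme that activates caspases (chromosome 14, 56258838 to 56262260), fell from 178556 and 175775 to 18148 and 9309, a 13.6-fold difference (-3.77 ± 0.30, adjusted p = 0.0027). These 2 genes together made up 1.27 and 1.37% of all signal in littermates and 0.102 and 0.0527% in knockouts. Gzmk fell from 1100 and 951 to 68.9 and 18.7, and Gzmc from 614 and 703 to 79.5 and 37.4. Granzymes are close paralogs, so reads may be shared among them. Prf1, which encodes the pore protein perforin (chromosome 10, 61297833 to 61304680), was at 4218 and 3220 against 629 and 408 (-2.86 ± 0.22). Fasl, the ligand of the death receptor Fas, was at 6579 and 5981 against 2996 and 3209 (-1.02 ± 0.10, adjusted p = 0.0039). Smaller falls were measured for Rab27a, which docks granules, at 2132 and 2165 against 1442 and 1566, for Serpinb6b (-0.78) and for the protease Ctsd (-0.45).

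Loss did not extend to every granule gene. Gzmm was at 64.1 and 72.5 in littermates and 66.7 and 66.5 in knockouts (log2 fold change -0.03, adjusted p = 0.97), a low signal. Unc13d, needed for granule priming, was at 7360 and 7336 against 7113 and 7487. Stxbp2, of the release machinery, had a log2 fold change of -0.06, and the proteases Ctsw and Ctsc had 0.21 and 0.24, none of them past the test. Nkg7 and Srgn were lower in both knockout libraries without passing (-0.55 and -0.43, adjusted p = 0.061 and 0.078). With the replicate block both were called lower (adjusted p = 3.5e-04 and 0.0022). Ifng, the cytokine of cytotoxic cells, was at 336 and 395 against 192 and 307 (-0.59, adjusted p = 0.26, and 0.031 with the block).

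Neighbours of Gzma on chromosome 13 fell with it, an arrangement picked out after the values were seen. Cdc20b (113035111 to 113091195) was at 3482 and 1965 in littermates and 195 and 47.8 in knockouts. Gpx8 (113042753 to 113046410), a glutathione peroxidase gene inside Cdc20b on the opposite strand, was at 1439 and 664 against 73.1 and 10.4. Gzmk (113171608 to 113225908) lies on the other side of Gzma. The log2 fold changes of these consecutive tested genes were -4.74 ± 0.61, -5.07 ± 0.82, -4.68 ± 0.34 and -4.79 ± 0.54, from Cdc20b and Gpx8 to Gzma and Gzmk. Within 300 kb on either side of Gzma, 7 of 11 protein-coding genes were tested and 4 were called lower. Of the other 3, Mtrex and Dhx29 had log2 fold changes of -0.04 and -0.23, and Ccno, the tested gene next to Cdc20b, was at 398 and 213 against 182 and 59.2 (-1.48, adjusted p = 0.19). Reads of Gpx8 and Cdc20b cannot be told apart where the genes overlap unless counting used strand, which is not given in the sources used here. Around Gzmb on chromosome 14, 3 of 17 protein-coding genes were tested within the same distance; Gzmb and its neighbour Gzmc fell and Cenpj did not pass (0.15).

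Chemokines and cytokines moved in both directions. Of 24 tested products, 7 rose and 6 fell, beside 4.29 and 2.54% of all genes tested. Genes for inflammatory chemokines of the CC family fell. Ccl5 (chromosome 11, 83525778 to 83530518) was at 128143 and 114509 in littermates and 26183 and 22771 in knockouts (-2.31 ± 0.16, adjusted p = 0.0025). Ccl4 was at 2889 and 1583 against 332 and 117, and Ccl3 at 1372 and 980 against 271 and 205. Il34, a ligand of the CSF1 receptor (chromosome 8, 110741829 to 110805924), was at 263 and 247 against 8.48 and 8.32 (-4.77 ± 0.36, adjusted p = 0.0027). Spp1, which encodes osteopontin, fell from 583 and 1018 to 110 and 126. Fgl2, a secreted fibrinogen-like protein, fell from 39568 and 36828 to 17129 and 17615. The groups did not overlap for any of these genes, nor for 52.4% of all genes tested.

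Of the 7 products that rose, 4 (Tnfsf11, Tnf, Lta and Il3) were below 50 in both littermates and could be called in 1 direction only. Among the 17 products with both littermates at 50 or more, a level chosen after seeing the data, 3 rose (17.6%) and 6 fell (35.3%), beside 2.64 and 2.69% of the 10358 tested genes at that level. Genes of the tumor necrosis factor family were called in both directions, since Fasl, described above, fell. Tnfsf11, which encodes RANKL, was at 2.07 and 6.04 in littermates and 81.6 and 60.3 in knockouts (3.94 ± 0.67, adjusted p = 0.020). Tnf was at 16.6 and 31.1 against 129 and 151, and Lta, its neighbour in the family, at 21.7 and 26.7 against 103 and 117. Ltb, the partner of Lta in the membrane lymphotoxin, rose from 1873 and 2846 to 4726 and 4785. Tnfsf14, which encodes LIGHT, rose from 360 and 556 to 951 and 1113. Outside this family, Xcl1, a chemokine that attracts cross-presenting dendritic cells, rose from 2148 and 3897 to 8330 and 9736 (1.64 ± 0.26, adjusted p = 0.016). Il3 rose from 6.21 and 3.45 to 53.0 and 65.5. Csf2 was at 27.9 and 167 against 356 and 479 and did not pass (2.57, adjusted p = 0.10), but did with the replicate block (2.2e-04).

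Letters of the known BLIMP1 consensus, GAAAGTG, were looked for on both strands in RefSeq promoter windows of 300 bases (GRCm38.p6). A window was found for 8877 of the 10969 genes tested, and 5.64% of those genes held the letters. The share was 7.56% (27 of 357) of the genes called higher and 3.59% (8 of 223) of those called lower, as a description with no test. The windows of Gzma, Gzmb, Gzmk, Prf1, Tcf7, Id3, Bach2 and Prdm1 held no match. Upstream sequences of 4 of the 27 higher genes are printed as examples, chosen with their values known, with the match in capitals: Il3, Tnfsf14 and the NK receptor gene Klrk1, described here, and Sidt1, a gene of the SID1 transmembrane family that rose from 1339 and 1681 to 3880 and 3607. Each holds the 250 bases before the RefSeq start, written 5′ to 3′ on the gene's own strand, which is minus for all 4. For Sidt1 the GENCODE gene reaches farther upstream, to 44333196, so its window lies inside that gene. They lie at chr11:54267280-54267529 for Il3, chr17:57194182-57194431 for Tnfsf14, chr16:44332839-44333088 for Sidt1 and chr6:129623865-129624114 for Klrk1. In Sidt1 and Klrk1 the letters are on the other strand and read CACTTTC.
Il3: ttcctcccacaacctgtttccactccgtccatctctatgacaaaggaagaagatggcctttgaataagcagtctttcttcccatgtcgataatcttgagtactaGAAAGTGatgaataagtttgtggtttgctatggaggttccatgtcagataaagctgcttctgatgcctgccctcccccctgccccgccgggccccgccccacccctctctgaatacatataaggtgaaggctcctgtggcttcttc
Tnfsf14: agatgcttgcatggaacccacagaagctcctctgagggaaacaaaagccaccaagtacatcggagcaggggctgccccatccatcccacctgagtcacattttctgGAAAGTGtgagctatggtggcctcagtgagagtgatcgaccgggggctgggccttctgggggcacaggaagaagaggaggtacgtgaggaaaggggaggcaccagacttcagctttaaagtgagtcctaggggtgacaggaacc
Sidt1: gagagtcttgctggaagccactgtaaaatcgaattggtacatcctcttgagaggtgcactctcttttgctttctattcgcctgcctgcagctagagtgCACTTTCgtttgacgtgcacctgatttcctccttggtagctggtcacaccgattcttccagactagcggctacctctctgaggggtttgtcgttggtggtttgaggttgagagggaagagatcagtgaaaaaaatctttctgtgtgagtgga
Klrk1: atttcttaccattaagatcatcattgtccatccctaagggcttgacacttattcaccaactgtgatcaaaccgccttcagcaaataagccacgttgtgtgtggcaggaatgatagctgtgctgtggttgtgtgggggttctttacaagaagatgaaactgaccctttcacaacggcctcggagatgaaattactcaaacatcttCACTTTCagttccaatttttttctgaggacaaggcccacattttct
The match begins 146 bases before the start in Il3, 144 in Tnfsf14, 152 in Sidt1 and 46 in Klrk1. A match describes the letters only and is not a measured binding site.

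Transcription factors of less differentiated T cells were higher. Tcf7 (chromosome 11, 52252371 to 52283014) was at 6605 and 12467 in littermates and 31096 and 28954 in knockouts, 3.31-fold higher (1.73 ± 0.27, adjusted p = 0.016). The littermates differed from each other, yet both lay below both knockouts. Id3 (chromosome 4, 136143497 to 136145755), whose product binds and blocks E-protein factors, was at 271 and 534 against 1387 and 1070 (1.68 ± 0.31, adjusted p = 0.026). Bach2, a repressor that holds back effector genes, was at 783 and 686 against 1875 and 1232 (1.05 ± 0.20). Slamf6, a surface receptor of stem-like T cells, rose from 210 and 258 to 504 and 539. With Ltb these were the 5 called members among 23 tested stem-like and memory genes (21.7%, beside 4.29% of all genes tested). None of the 23 was called lower, and the list's median was 0.52. Both knockout libraries, which held more of these transcripts than both littermates, also held more epithelial signal, and its part was not tested. Genes of naive and circulating T cells in the same list did not pass. Lef1 was at 340 and 246 against 325 and 282, Il7r at 198 and 141 against 408 and 191, and Foxo1 at 19996 and 12938 against 17935 and 11830. Myb (1.07, adjusted p = 0.068), Socs3 (1.11, 0.056) and Satb1 (0.47, 0.056) were higher in both knockout libraries without passing. With the replicate block, 13 of the 23 were called higher, among them Il7r (adjusted p = 0.023), beside 11.0% of all genes tested. Ccr7, a receptor of lymph node homing, stayed below the filter, at 4.14 and 12.1 in littermates and 18.0 and 14.6 in knockouts.

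**Figure D2:**
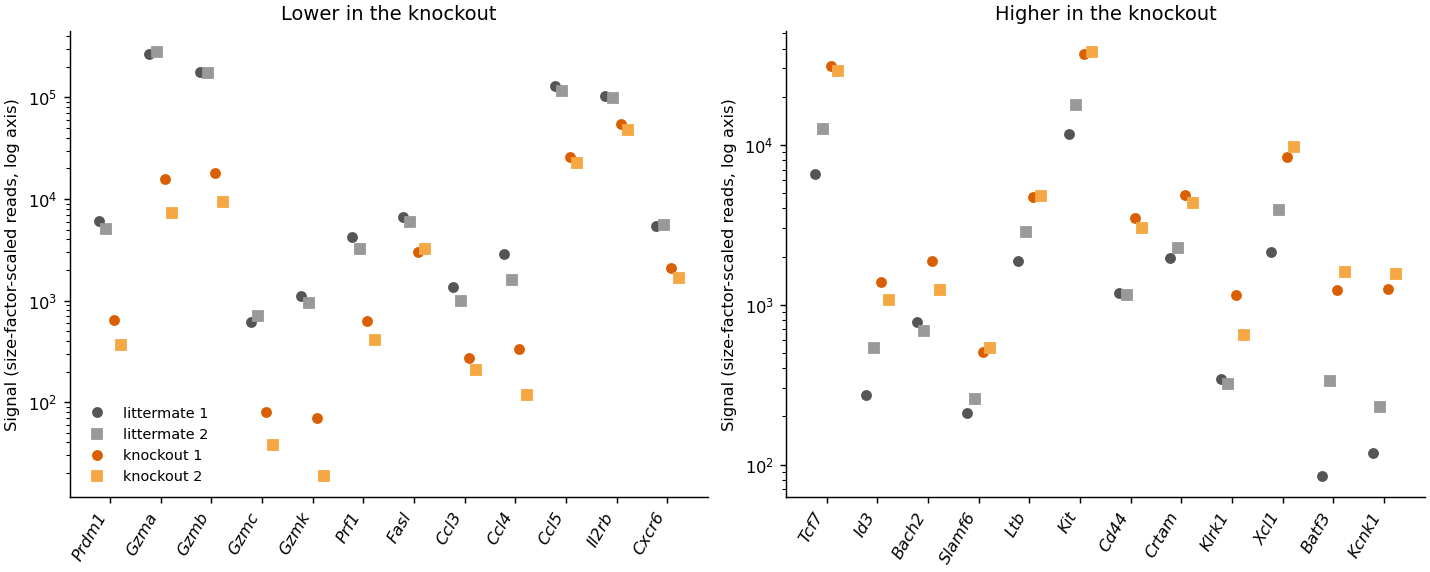
Signal of each library (log scale) for 12 genes that fell and 12 that rose in the knockout, with littermates in grey, knockouts in orange, circles for replicate 1 and squares for replicate 2. No gene shown has overlapping groups, and neither did 52.4% of all genes tested. The 2 littermates differ from each other for Batf3 (84.8 and 335) and lie close for Gzma (267146 and 277468).

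Of 73 T cell transcription factors tested, 9 rose (12.3%) and 4 fell (5.48%), beside 4.29 and 2.54% of all genes tested. The 4 that fell include Prdm1, the deleted gene, whose fall was set by the design. Lyl1, a basic helix-loop-helix factor of early blood cells (chromosome 8, 84701457 to 84704715), fell from 533 and 385 to 10.6 and 8.32, the most negative log2 fold change of all genes tested (-5.45 ± 0.34, adjusted p = 0.0022). Runx1 fell from 3116 and 1878 to 451 and 216 (-2.95 ± 0.37) and Runx2 from 6043 and 4457 to 2733 and 1923 (-1.18 ± 0.20). Runx3, the family member that supports the CD8 lineage, was at 28905 and 31128 against 25905 and 28670 (-0.14, adjusted p = 0.60). So the 3 Runx genes had unequal changes in the same libraries. Batf3, an AP-1 family factor (chromosome 1, 191097847 to 191108945), rose from 84.8 and 335 to 1228 and 1602 (3.05 ± 0.56, adjusted p = 0.026). The factors Nfkb1, from 7259 and 9585 to 18588 and 17020, and Zeb2, from 149 and 165 to 306 and 360, rose as well, and so did Tox2, Myc and Mafk. Bcl6 was at 3258 and 2492 in littermates and 4956 and 3127 in knockouts, and the groups overlapped (0.47 ± 0.23, adjusted p = 0.31). With the replicate block Bcl6 passed at the same fold change (adjusted p = 0.0017). Tbx21, Gata3 and Id2, factors of effector and helper T cells, had log2 fold changes of -0.30, -0.40 and -0.08 and did not pass. With the block Tbx21 (adjusted p = 0.013) and Gata3 (0.0040) were called lower, and Id2 (0.53) was not. Zfp683, which encodes the BLIMP1 relative HOBIT, was below the filter at 35.2 and 17.3 against 75.2 and 26.0.

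Surface receptors were divided. Among 31 NK receptors and adaptors, 4 rose (12.9%) and 5 fell (16.1%), beside 4.29 and 2.54% of all genes tested. Klrk1, which encodes the activating receptor NKG2D, rose from 341 and 318 to 1147 and 645 (1.38 ± 0.26, adjusted p = 0.028). Crtam, a receptor for nectin-like molecules, rose from 1950 and 2265 to 4869 and 4325, and Cd226 and Klrb1f rose too. Klrd1, which encodes the CD94 partner of NKG2 chains, fell from 21721 and 18325 to 12823 and 11774. Its signalling neighbour Tyrobp, which encodes the adaptor DAP12, fell from 7258 and 7955 to 4531 and 5266. Lilrb4a (-1.48), Klra3 (-1.24) and Sh2d1b1 (-0.52) fell as well; Klra genes are near-identical copies, so Klra3 is uncertain. Cd160, a receptor for HVEM, was at 6555 and 12267 against 17310 and 19212 (1.02 ± 0.27) and did not pass without the block (adjusted p = 0.079) but did with it (8.2e-05).

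Among 17 inhibitory receptors 3 fell (17.6%) and 1 rose (5.88%), beside 2.54 and 4.29% of all genes tested. Cd200r4 fell from 15176 and 12875 to 7930 and 7369. Entpd1, the ectonucleotidase CD39, fell from 4993 and 4661 to 3371 and 2746, but without knockout replicate 2 its adjusted p was 0.085. Vsir fell from 19509 and 19020 to 12615 and 12325, with an adjusted p of 0.050 without knockout replicate 1 and 0.093 without knockout replicate 2. Ceacam1, which gut epithelium also expresses, rose from 74.5 and 77.7 to 447 and 583. Pdcd1, Tigit and Lag3 did not pass (0.34, 0.05 and -0.43). With the block, which called 10.7% of all genes tested lower and 11.0% higher, Lag3 was called lower (adjusted p = 0.0017). So were Ctla4 (1.0e-04), Cd101 (0.0020), Cd200r1 (0.0022) and Cd244a (0.018), besides the genes that fell without it. Cd160 and Ceacam1 were called higher with the block, and Pdcd1 and Tigit were not called.

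Receptors for growth factors and chemokines likewise moved both ways, with 4 of 30 higher (13.3%) and 3 lower (10.0%). The shares of all genes tested were 4.29 and 2.54%. Kit, the stem cell factor receptor (chromosome 5, 75574916 to 75656722), rose from 11594 and 17857 to 36960 and 37801 (1.38 ± 0.20, adjusted p = 0.014). Ifngr2 rose from 116 and 141 to 420 and 510, and Cxcr4 and Il9r rose at 1.43 and 1.17. Il2rb, the β chain through which interleukin-15 maintains these cells, fell from 103213 and 99227 to 54561 and 47551 (-0.99 ± 0.17, adjusted p = 0.020). Il2rg, the common γ chain of the same receptor, was at 12052 and 16292 against 15361 and 16754 and did not pass. Il10ra fell from 250 and 232 to 115 and 63.4.

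Residency and homing genes changed in part. Of 30 tested, 5 rose (16.7%, beside 4.29% of all genes tested) and 2 fell (6.67%, beside 2.54%), with a median of -0.06 that turned to 0.02 with library totals rescaled. Cxcr6, the receptor for CXCL16 (chromosome 9, 123806475 to 123811760), fell from 5379 and 5525 to 2068 and 1664 (-1.55 ± 0.12, adjusted p = 0.0027). Gpr34 fell from 8005 and 6918 to 4644 and 3227. The integrin chains did not move together. Itgal rose from 1643 and 1670 to 2921 and 2949 and Itgb1 from 1680 and 1866 to 2626 and 2710, though without knockout replicate 2 Itgb1 had an adjusted p of 0.060. Itgam and Itgax fell (-3.49 and -0.86), and Itga4 (0.36), Itgb7 (-0.39) and Itgb2 (-0.20) did not pass. Smad3, which transmits the TGF-β signal, rose from 814 and 646 to 1513 and 1526. Gpr15, a gut homing receptor, rose from 39.3 and 102 to 219 and 301. Itgae (-0.29), Cd69 (-0.02), Ccr9 (0.34), Itga1 (-0.34) and Rgs1 (-0.54) did not pass. Among 9 tissue exit genes, Lfng fell from 5358 and 4940 to 2529 and 2422, and limma called none higher. Slfn5, at 26.9 and 23.3 against 65.7 and 114, was called higher by edgeR (adjusted p = 0.047) and with the block (0.013). The block also called Klf2 (0.0050) and Tagln2 (0.0029) higher, and DESeq2 called 2 of the 9 higher.

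**Figure D3:**
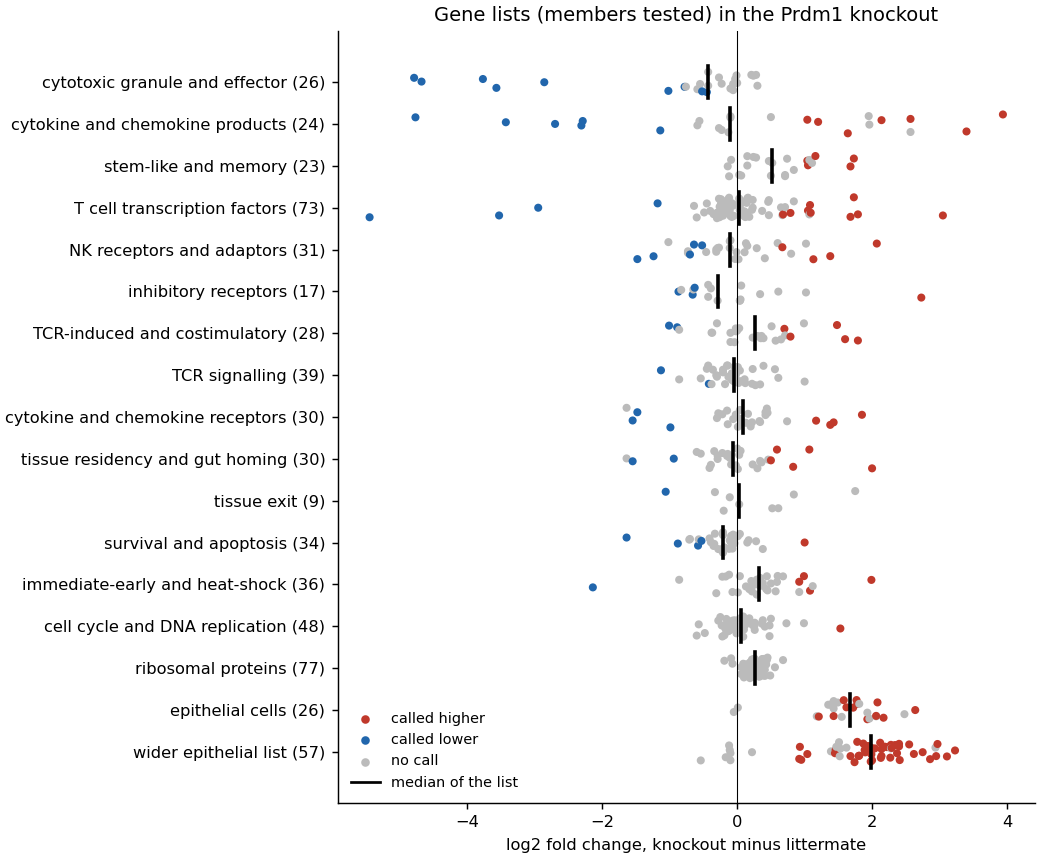
Log2 fold change, knockout minus littermate, of each tested member of 17 gene lists (number tested in parentheses), with called members in red and blue and the list median as a black bar. Cytotoxic genes reach -4.79, chemokine and cytokine products span -4.77 to 3.94, and both epithelial lists lie almost wholly to the right of 0.

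Activation genes shifted without a common direction. Of 28 genes induced by the T cell receptor, 5 rose (17.9%) and 2 fell (7.14%), beside 4.29 and 2.54% of all genes tested. Cd44, the hyaluronan receptor of activated T cells, rose from 1183 and 1144 to 3496 and 3028 (1.48 ± 0.11, adjusted p = 0.0027). Spry1 rose from 61.0 and 89.7 to 208 and 245. Tnfrsf9, which encodes 4-1BB, fell from 5366 and 4072 to 2476 and 2164, and the phosphatase gene Dusp2 fell from 1181 and 1278 to 662 and 667. Nr4a1, Nr4a2 and Nr4a3, read as marks of recent receptor signalling, did not pass (0.36, 0.00 and 0.35) and their groups overlapped. Of 39 receptor signalling genes, Pag1 fell from 10773 and 6514 to 3954 and 3695, and Lat had -0.42 with an adjusted p of 0.042 that rose to 0.063, 0.064, 0.16 and 0.21 when littermate replicate 1, littermate replicate 2, knockout replicate 1 and knockout replicate 2 were left out in turn. Among 36 immediate-early and heat-shock genes 4 rose (11.1%) and 1 fell (2.78%), beside 4.29 and 2.54% of all genes tested. With the block 19 rose and 3 fell, beside 11.0 and 10.7% of all genes tested. Atf3 rose from 367 and 411 to 2050 and 1172 (1.99 ± 0.25, adjusted p = 0.0084) and Bag3 from 455 and 406 to 1047 and 794, while Gadd45g fell from 1098 and 824 to 248 and 186. Hspa1b rose from 32947 and 38782 to 77979 and 58555, and its near-identical copy Hspa1a had an adjusted p of 0.055 without knockout replicate 1. Genes of this list respond to cell handling, and the labels do not say how the groups were handled; the part of handling was not tested.

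Of 34 survival and apoptosis genes tested, 4 fell (11.8%) and 1 rose (2.94%), beside 2.54 and 4.29% of all genes tested. With the block 13 fell and 3 rose, beside 10.7 and 11.0% of all genes tested. Apaf1, the scaffold of the apoptosome, fell from 6359 and 5448 to 4218 and 3688 (-0.58), but lost its call without littermate replicate 1 (adjusted p = 0.064) or knockout replicate 2 (0.14). Casp1, which matures interleukin-1β, fell from 838 and 1056 to 449 and 580 (-0.88), but lost its call without littermate replicate 2 (0.052). Tnfrsf10b, a TRAIL receptor, rose from 371 and 318 to 844 and 560. Bcl2 was at 26262 and 23940 against 30566 and 30413 and Bcl2l11 at 20283 and 16940 against 27286 and 21388, neither past the test.

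Growth, metabolism and interferon programs had few calls by limma, which called 4.29% of all genes tested higher and 2.54% lower. Of 48 cell cycle genes, Ccnd1 was called higher at 51.7 and 37.1 against 112 and 148, with an adjusted p of 0.054 without littermate replicate 2 and 0.21 without knockout replicate 2, and none was called lower. With the block, the cell cycle genes Ccnd2, Kif11 and Mcm4 were called lower (adjusted p = 0.0012, 0.017 and 0.024). Cdk6 and Cdk4 were then called higher (0.0036 and 0.013), as was Ccnd1 (0.0070). None of 20 cell cycle inhibitors, 60 oxidative phosphorylation genes or 77 ribosomal protein genes was called in either direction by limma without the block. At an unadjusted p of 0.05 the counts were 2 higher and 2 lower, 1 and 1, and 6 and 0. edgeR called none of these genes, and DESeq2 called 1 higher in each list and 2 lower among the inhibitors. Of all genes tested, the block called 11.0% higher and 10.7% lower. With it, 20 ribosomal protein genes were called higher. The median of the ribosomal list was 0.26, and 0.06 without littermate replicate 1. Among the inhibitors the block called Klf4 and Klf2 higher (adjusted p = 4.6e-06 and 0.0050) and Foxo3, Slfn2, Tsc22d3 and Cdkn1b lower (9.3e-05, 0.0020, 0.013 and 0.022), and among oxidative phosphorylation genes Cox7a2 higher (0.0031). Of 52 interferon-stimulated genes limma called Ifi213 alone, at 2342 and 2810 against 3838 and 4011, and its adjusted p was 0.053 without knockout replicate 2. Zbp1 and Gbp6 (0.52 and 0.54) were called higher by edgeR as well (adjusted p = 0.046 and 0.048). The block called 6 of the 52 higher and Isg20 alone lower (adjusted p = 0.0099), beside 11.0 and 10.7% of all genes tested. Of 27 genes of the secretory pathway and unfolded protein response, which BLIMP1 is known to promote in plasma cells, Eif2ak3 fell from 5636 and 4190 to 2800 and 2927 and none rose; with the block 9 fell. Xbp1, the plasma cell secretory factor, was at 5440 and 5351 against 4315 and 3629 (-0.45, adjusted p = 0.068, and 0.0015 with the block). Of 24 cholesterol synthesis genes Lss alone was called by limma, falling from 2702 and 2160 to 1450 and 1444, and with the block 8 fell. Among 22 glycolysis genes Slc2a3 (-0.46) and Pfkfb3 (0.46) were called, and each lost the call when single libraries were left out. With the block, Slc16a3, Hk1 and Ldha were also called lower (adjusted p = 0.0031, 0.0026 and 0.017). Hk2, Pfkp and Slc16a1 were then called higher as well (0.0010, 0.0080 and 0.013).

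Other genes led the fold changes at a mean signal of at least 250. Besides those above, the largest falls were in Ky, a muscle cytoskeleton gene, from 1301 and 733 to 53.0 and 15.6, and Dennd5a, a Rab exchange factor, from 3047 and 2005 to 152 and 72.8. Kcng3, a modifier subunit of voltage-gated potassium channels, fell from 3775 and 2758 to 346 and 209. Itgam, the integrin αM chain, fell from 718 and 569 to 77.3 and 40.5. The largest rise was in Kcnk1, a background potassium channel, from 118 and 230 to 1253 and 1553 (3.07 ± 0.31, adjusted p = 0.0040). Slc2a6, a sugar transporter gene, rose from 104 and 244 to 908 and 954. Ucp3, a mitochondrial carrier, was at 47.6 and 174 against 467 and 570 and passed by limma (adjusted p = 0.045) but not by edgeR (0.054) or DESeq2 (0.073). Eppk1, Olfm4, Dmbt1, Cps1, Clca3b and Muc3 are genes of epithelia, and with Ceacam1 they made up 7 of the 12 largest rises. Thbs1, which encodes the matrix protein thrombospondin-1, rose from 72.4 and 86.3 to 306 and 681.

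Epithelial transcripts were measured as a group because of this. Of 26 tested epithelial genes 12 rose (46.2%, beside 4.29% of all genes tested), none fell and the median was 1.67. All 12 had both littermates at 50 or more, as did 21 of the 26. In a wider list of 57 tested epithelial genes, drawn up after these values were seen, 42 rose. Of these 57, 29 had a littermate below 50 and passed the filter only through a knockout library, so their 21 higher calls are partly fixed by the filter. Of the other 28, 21 rose and none fell. Olfm4, a crypt marker, was at 274 and 400 in littermates and 2404 and 1785 in knockouts. Krt8, a keratin of simple epithelium, was at 250 and 198 against 929 and 1094, and Sis, the sucrase-isomaltase of enterocytes, at 202 and 164 against 606 and 953. Epcam and Cdh1, which these T cells also express, were level at 2744, 2778, 2763 and 2812 for Epcam and at 10768, 10227, 10652 and 9597 for Cdh1. Genes of Paneth cells were highest in knockout replicate 2 alone, with Lyz1 at 663 and 1488 against 1355 and 6284. The wider list held 0.0427 and 0.0452% of signal in littermates and 0.0831 and 0.105% in knockouts. Without both lists 417 genes remained called higher, and the number called lower stayed at 279. The lists do not cover all epithelial genes. Eppk1, Dmbt1, Cps1, Clca3b and Ceacam1, named above among the largest rises, are on neither list and remain in the 417.

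**Figure D4:**
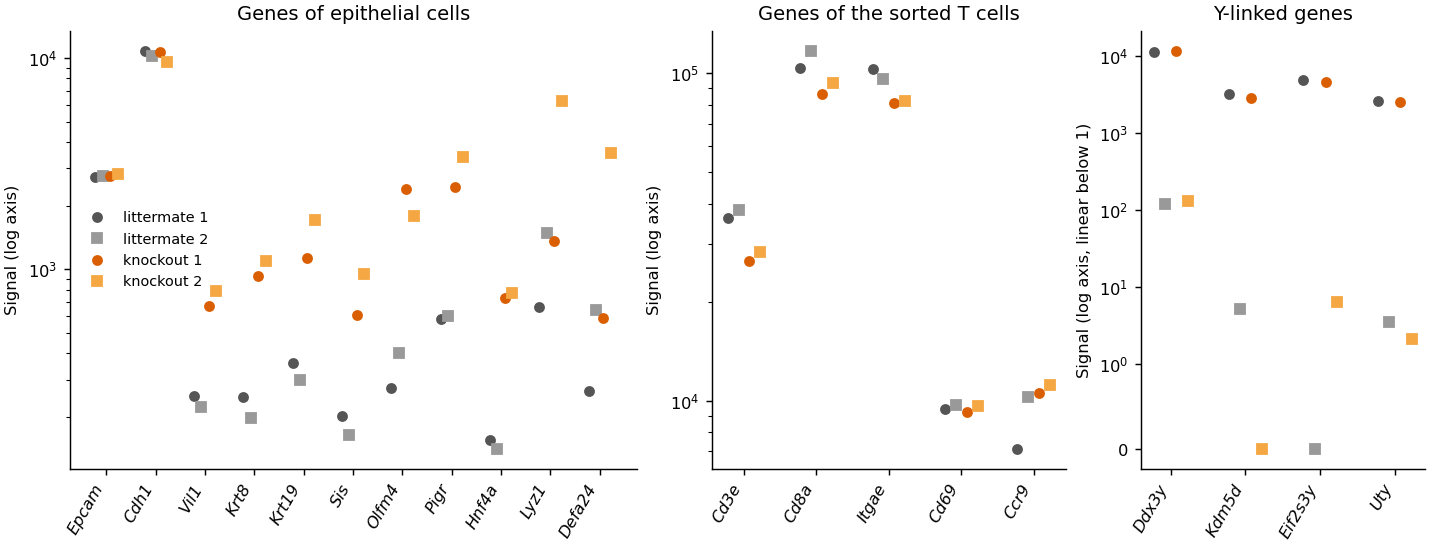
Signal of each library for genes of epithelial cells (left), of the sorted T cells (middle) and of the Y chromosome (right), on log axes, the right axis linear below 1. Krt8 and Sis are higher in both knockouts, Epcam and Cdh1 are level, and Y-linked genes such as Ddx3y are high only in the 2 libraries numbered 1.

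Of 10 tested myeloid genes, 3 fell (30.0%, beside 2.54% of all genes tested) and 2 rose (20.0%, beside 4.29%). Those that fell were integrin and Fc receptor genes that these lymphocytes express as well, Itgam, Itgax (11973 and 9598 against 5995 and 5809) and Fcgr3 (1500 and 1740 against 801 and 640). H2-Aa and H2-Eb1, class II genes, rose from low levels, H2-Aa from 89.0 and 114 to 297 and 282, and Lyz2 was at 40.3 and 44.0 against 92.2 and 250. None of 2 B and plasma cell genes, 11 CD4 and CD8αβ T cell genes, 2 innate lymphoid and mast cell genes and 8 stromal, endothelial and erythroid genes was called by limma or edgeR. DESeq2 called 1 gene higher in each of the first 2 lists, and at an unadjusted p of 0.05 limma put 1, 1, 0 and 1 higher and 0, 2, 0 and 0 lower. With the block Sdc1 (adjusted p = 0.0070), Cd2 (0.015) and Thy1 (0.043) were called higher and Ctla4 (1.0e-04), Zbtb7b (0.037) and Gata3 (0.0040) lower. No γδ T cell gene was tested; the 2 in the table summed to 18.6 and 10.4 in littermates and 40.3 and 45.7 in knockouts.

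The knockout was set beside cells sorted from Bcl6-RFP reporter mice, RFP+CD160+ against RFP-CD160- CD8αα+ αβ intraepithelial lymphocytes (3 libraries each, FPKM), which share no library with it. In those cells Prdm1 averaged 1.04 ± 0.223 FPKM in RFP+ and 26.9 ± 4.76 in RFP- cells (SD). Of 9582 genes tested in both, 16.4% were higher and 21.7% lower in RFP+ cells. Of the 471 genes called higher in the knockout, only 185 were tested in both. The epithelial genes Vil1, Muc2 and Sis, for example, were not. Of the 279 called lower, 263 were tested in both. Among the 185, 149 (80.5%) were higher in RFP+ cells and 3 lower. Among the 263, 253 (96.2%) were lower in RFP+ cells and 1 higher. These were 9.50% of all genes higher and 12.2% of all genes lower in RFP+ cells, so most genes that part the sorted cells were not called in the knockout. The size of change differed by gene. Tcf7 had log2 fold changes of 1.73 in the knockout and 5.33 between sorted cells, Id3 had 1.68 and 3.65, and Gzma had -4.68 and -7.07. Gpx8, at -5.07 and -5.03, Runx1, at -2.95 and -2.15, and Kit, at 1.38 and 1.58, were closer, though the pseudocount of 1 acts on different units in the 2 tables. The epithelial gene Olfm4 had 2.64 in the knockout and -0.85 between sorted cells (adjusted p = 0.14).

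**Figure D5:**
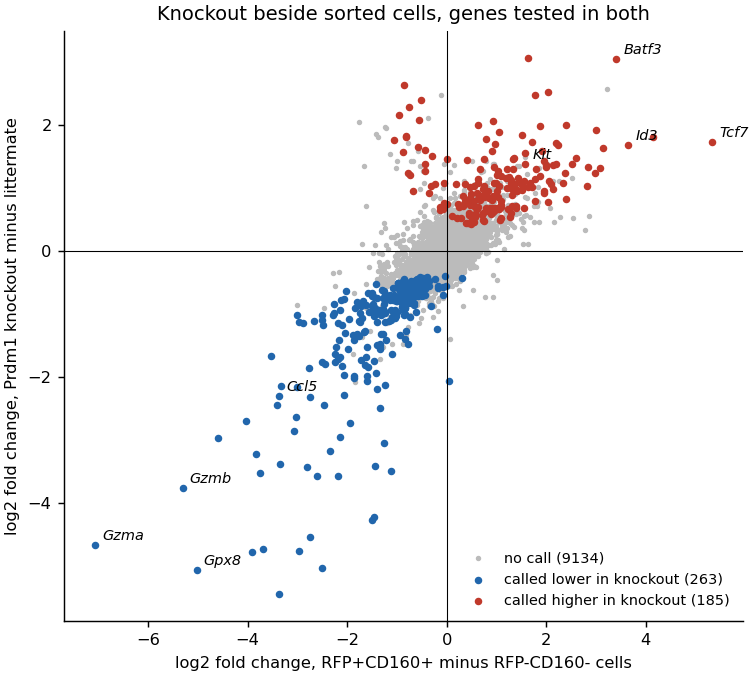
Log2 fold change in the Prdm1 knockout (y axis) against that of RFP+CD160+ minus RFP-CD160- cells (x axis) for the 9582 genes tested in both. Of the 279 genes called lower in the knockout, 263 are shown (blue), almost all to the left of 0. Of the 471 called higher, only 185 are shown (red), most to the right of 0. Tcf7, Id3 and Batf3 are at the upper right and Gzma and Gzmb at the lower left.

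Losing Bcl6 or Tcf7 through the same Cre gave mostly other changes, in libraries that are not shared with the Prdm1 experiment. Alone, the Bcl6 knockout had 0.0313% of genes called higher and 0.387% lower, and the Tcf7 knockout 1.49 and 1.23%. Over 8 libraries, the Prdm1 effect was higher than the Bcl6 effect for 192 of 9315 genes (2.06%) and lower for 134 (1.44%). It was higher than the Tcf7 effect for 563 of 10841 genes (5.19%) and lower for 464 (4.28%). Id3 rose without Prdm1 and fell without Bcl6 (-1.77, adjusted p = 0.0054), a difference of 3.45 ± 0.40 (adjusted p = 0.0016). Gzma fell without Prdm1 and rose without Tcf7 (0.52, adjusted p = 1.4e-04), a difference of -5.20 ± 0.39 (adjusted p = 9.8e-05). Wnt11, a secreted Wnt ligand, rose from 794 and 878 to 2922 and 2867 without Prdm1 and fell from 417 and 450 to 64.7 and 55.8 without Tcf7. Of 443 genes called higher in the Prdm1 knockout and tested in both, 64 (14.4%) were lower in the Tcf7 knockout, beside 1.60% of all 10841 genes. Of 278 called lower, 68 (24.5%) were higher there, beside 1.72%. These 64 genes were 37.0% of all that fell, and the 68 were 36.4% of all that rose, without Tcf7. Some changes were shared. Called higher in both knockouts were 9 of the 443 (2.03%, beside 1.72% of all 10841 genes), and lower in both 5 of the 278 (1.80%, beside 1.60%). Thbs1 rose in both, by 2.52 without Prdm1 and 2.47 without Tcf7.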

How the data were processed

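Total RNA of sorted cells was extracted with MagZol and libraries were made by BGI Genomics or Novogene, per the labels' protocols, which do not assign libraries to either. Tools listed without roles, per the submitters' processing notes, are DESeq2, RSEM, featureCounts, Subread, Bowtie2 and Trim Galore 0.4.4, with the mm10 build. The Prdm1 and Tcf7 values were deposited under the name FPKM but are a gene signal: 100% of the Prdm1 values were whole multiples of 1 read (tolerance 0.01). The Bcl6 and RFP values were deposited by the authors as FPKM.

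In R 4.3.3, log2(value + 1) was fitted with limma 3.58.1 (eBayes with trend, two-sided, Benjamini-Hochberg over all genes tested, threshold 0.05). Genes needed a signal of 50 in 2 libraries, or 1 FPKM. Fold changes are on that scale and understate low genes. Alternatives were a pseudocount of 10, other filters, rescaled totals, quantile normalization, edgeR 4.0.16 and DESeq2 1.42.0 on recovered reads, the replicate block and each library left out. Deviations of same-numbered libraries correlated at 0.53 (2 pairs, which does not establish pairing).

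Named were 9 fixed genes, the 12 largest rises and 12 largest falls at a mean of 250, up to 4 called members per list and 5 genes per direction of each difference test; other list members were added after their values were seen. Members and lists were chosen with earlier results of these data known. GENCODE vM21 (GRCm38) matched 98.9% of tested symbols. Another 2 libraries, in no group by the labels, were not used. Some genes are not reported here.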

Additional observations from a re-analysis of the deposited data

Results flagged for a closer look

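These genes responded differently to loss of Prdm1 than to loss of Bcl6 or of Tcf7, by the test of the difference itself (limma over 8 libraries, 4 per experiment). Values are the Prdm1 log2 fold change minus the other one, and no cause was tested. The Bcl6 table is in FPKM and the Prdm1 table in signal, so a pseudocount of 1 shrinks changes of low genes more in the former.

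Against Bcl6, the cytotoxic genes Gzma, Gzmk and Gzmb differed by -5.13 ± 0.42, -4.96 and -3.74. The neighbours of Gzma on chromosome 13 differed as well, Cdc20b by -5.44 and Gpx8 by -5.42, and so did Ky (-5.10), which was at 1.80 and 1.60 FPKM in Bcl6 littermates. None of these 6 genes was called in the Bcl6 knockout, where Gzma was at 14675 and 12931 FPKM in littermates and 18282 and 19581 in knockouts. Tcf7 differed by 2.37 and Id3 by 3.45. Slc2a6, called higher without Prdm1 and lower without Bcl6, differed by 3.95. The heat-shock gene Hspa1b differed by 4.02 (adjusted p = 2.1e-04), at 98.6 and 96.2 against 12.8 and 8.49 FPKM in the Bcl6 experiment. The Paneth cell genes Defa39 (4.82), Defa38 (4.23) and Lyz1 (3.93) were called lower in the Bcl6 knockout. In the Prdm1 knockout they were not called by limma without the block, and were called higher with it (adjusted p = 4.6e-05, 1.9e-04 and 2.3e-05). The epithelial list, which held more of the signal without Prdm1, held 0.163 and 0.177% in Bcl6 littermates and 0.118 and 0.108% in Bcl6 knockouts. That list itself contains the Paneth cell genes Lyz1, Defa24 and Defa30. The wider epithelial list held 0.0509 and 0.0594% in Bcl6 littermates and 0.0582 and 0.0495% in Bcl6 knockouts, so it did not fall clearly. The part of epithelial signal was not tested.

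Against Tcf7, the differences were -6.35 for Gpx8, -5.50 for Cdc20b, -5.46 for Ky, -5.20 for Gzma, -5.12 for Gzmk and -4.31 for Gzmb. Of these, all but Gzmk were called higher in the Tcf7 knockout. Tcf7, the gene deleted there, differed by 2.70, Id3 by 1.60 and Cd160 by 1.43. Wnt11 differed by 4.62 (adjusted p = 2.9e-06), Kcnk1 by 4.19, Lrrk2 by 4.02, Ucp3 by 3.94 and Batf3 by 3.86. Lrrk2, a kinase gene, was at 822 and 919 in Tcf7 littermates and 216 and 210 in Tcf7 knockouts, and rose from 449 and 780 to 2395 and 2345 without Prdm1.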

How the results depend on the processing

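The number of genes called moved with the processing. None of the 80 genes followed under every alternative (the fixed genes, the largest changes and the leading members of each list) reversed in direction. Of these, 77 had been called in the same libraries that the alternatives refit, so reversals were unlikely from the start. Against 471 higher and 279 lower calls, the replicate block gave 1210 and 1176, DESeq2 778 higher, a minimum of 250 in 2 libraries 210 higher, and genes at 250 or more in both littermates, chosen after seeing the data, 147 higher. Leaving out 1 library gave 367 to 700 higher calls and 228 to 483 lower calls, the 483 without littermate replicate 2. Of the 750 calls, 750 were kept with the block or a pseudocount of 10, 711 by edgeR, 748 by DESeq2, 688 with rescaled totals, 512 with quantile normalization and 493 without knockout replicate 2, where the lone knockout is assumed to vary like the littermates. Of 77 named calls, 67 to 73 were kept without single libraries. Cd160 passed with any 1 library left out and Bcl6 without knockout replicate 2 (0.80, adjusted p = 0.0069). For the Prdm1 minus Bcl6 effect, leaving out 1 library gave 78 to 115 lower calls and 132 to 185 higher calls, against 134 and 192, with 78 without littermate replicate 1 and 84 without knockout replicate 2. For the Prdm1 minus Tcf7 effect the block gave 1076 higher and 1173 lower calls, and leaving out 1 library 346 to 723 lower, the 723 without littermate replicate 2, and 405 to 783 higher. Rescaling moved the median of all genes from -0.04 to 0.03, and the medians of the TCR signalling, interferon-stimulated, oxidative phosphorylation and cell cycle inhibitor lists changed sign with it. The cause of these moves was not tested. With 2 libraries a group, the smallest change called by limma without the block was 0.40 on the log2 scale.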
